A study of Mus musculus with 34 samples.

Results

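A set of 10 genes of the NRF2 and glutathione defence was described in mouse liver: Nfe2l2, Nqo1, Gclc, Gclm, Srxn1, Txnrd1, Hmox1, Gstm1, Gstm3 and Gpx1. They were chosen by gene symbol, among 13099 genes tested in all. A gene was read from the probe set that carried only its symbol and had the highest mean signal over 34 arrays, and the 10 genes had 22 such probe sets between them. All 10 passed the filter on low signals.

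Each array measured total RNA of 1 sample on an Affymetrix mouse array, with 7 groups. At 48 weeks there were 5 tumours of Pdgf-c transgenic mice, 5 livers of transgenic mice fed 0.06% peretinoin, 5 livers of transgenic mice without peretinoin and 4 livers of wild-type C57/B6 mice. At 20 weeks there were 5 livers of peretinoin-fed transgenic mice, 5 of transgenic mice without peretinoin and 5 of wild-type mice. Peretinoin is an acyclic retinoid, given in the diet after weaning at week 4; the labels give none for wild-type mice. Platelet-derived growth factor C, the product of the transgene, drives matrix-producing cells of the liver, and the submitters describe fibrosis at week 20 and tumours at week 48. No promoter of the transgene was given in the sources used here, nor whether tumours and livers were taken from the same mice. The labels number the replicates but do not say that each is a separate animal, so p-values measure the spread between these samples.

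NRF2, the protein of Nfe2l2, is a transcription factor that KEAP1 holds at low level by targeting it for destruction. Electrophiles and oxidants release it, and it then pairs with small MAF proteins on antioxidant response elements in front of detoxifying genes. Glutathione, the main thiol of the hepatocyte, is made by glutamate-cysteine ligase (Gclc and Gclm), joined to electrophiles by glutathione S-transferases and oxidised by glutathione peroxidases, while thioredoxin reductase and sulfiredoxin keep a parallel thiol system reduced.

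The core of the antioxidant response element, TGACNNNGC, was searched on both strands of RefSeq promoters (GRCm38.p6, 250 bases before to 50 bases after each gene's start). Promoters were held for 8 of the 10 genes, 11 promoters in all, and Gclc and Hmox1 were not matched. The core was found in 1 promoter each of Nfe2l2, Srxn1, Txnrd1 and Gclm, against 12.4% of all 32851 promoters. The related AP-1 element TGANTCA was found in Srxn1, against 7.81% of all promoters, and it overlapped none of the core matches. Positions are counted from the start, with +1 as the first base transcribed. In Nfe2l2 the core reads on the gene's strand at -240 to -232. It reads on the opposite strand at +29 to +37 in Srxn1, at -134 to -126 in Gclm and at -92 to -84 in 1 of the 3 Txnrd1 promoters. Binding of NRF2 at these matches was not tested. These stretches are shown because they hold a match to the core letters, with the match in capitals, each 5' to 3' on the gene's strand:
Nfe2l2, chr2:75704869-75704913, minus strand: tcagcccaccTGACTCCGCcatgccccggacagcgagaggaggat
Srxn1, chr2:152105542-152105570, plus strand: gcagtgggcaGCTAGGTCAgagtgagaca
Txnrd1, chr10:82859088-82859148, plus strand: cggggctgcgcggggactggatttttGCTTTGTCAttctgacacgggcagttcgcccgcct
Gclm, chr3:122245397-122245457, plus strand: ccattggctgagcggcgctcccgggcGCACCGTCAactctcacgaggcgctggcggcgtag

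Gstm3, the member whose RNA differed most between groups, had no match to either motif in its window, which says only that these letters are absent there. The 120 bases before its start are shown for comparison:
Gstm3, chr3:107969175-107969294, minus strand: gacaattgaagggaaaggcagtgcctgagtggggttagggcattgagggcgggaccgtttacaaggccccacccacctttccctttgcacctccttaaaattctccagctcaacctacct

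The signals are MAS5 intensities on a linear scale, and all tests were made on log2(signal + 16). The 2% trimmed mean lay between 500.003 and 500.004 on each array and array medians ran from 71.5 to 95.7. The hepatocyte markers (Alb, Ttr, Apoa1 and 4 others) were high on all arrays, with summed signals of 133261 to 172925 in tumours and 168148 to 200824 in wild-type liver at 48 weeks. Transcripts of skeletal muscle or pancreatic acinar cells were carried by 6 arrays: 1 of transgenic liver at 20 weeks, 2 of peretinoin-fed liver at 20 weeks, and 1 each of wild-type, transgenic and peretinoin-fed liver at 48 weeks. Without those 6 arrays the number of members called was the same as with them in each of the 11 comparisons.

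Gstm3 and Gpx1 were the members called in transgenic liver at both ages, and tumours had 5 further calls against wild-type liver. Calls were made in limma where p, adjusted by Benjamini-Hochberg over all 13099 genes, was under 0.05. In transgenic against wild-type liver, Gstm3 was higher and Gpx1 lower at 20 weeks, and likewise at 48 weeks, so 2 of 10 members were called at each age. Of all genes tested, 23.7% were called at 20 weeks (15.8% higher, 7.87% lower) and 20.8% at 48 weeks (14.2% higher, 6.58% lower), so the members' share was near that of all genes. In tumour against wild-type liver at 48 weeks, 7 of 10 members were called: Nfe2l2, Nqo1, Srxn1, Txnrd1, Hmox1 and Gstm3 were higher and Gpx1 was lower. There, 27.1% of all genes were called (17.9% higher, 9.21% lower). The members' median log2 change was 0.47 in that comparison, beside 0.03 over all genes, against 0.19 beside 0.04 for transgenic liver at 48 weeks and -0.08 beside 0.06 at 20 weeks. The tumour and the transgenic comparisons at 48 weeks share their 4 wild-type arrays.

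The split of calls depended on the scaling of arrays. With each array centred on its median the calls were 1419 higher and 1619 lower for transgenic liver at 20 weeks, beside 2071 higher and 1031 lower as deposited. With quantile normalisation they were 1523 higher and 1262 lower. For transgenic liver at 48 weeks, median centring gave 2234 higher and 410 lower, beside 1858 higher and 862 lower as deposited, and for tumour against wild type it gave 2678 higher and 697 lower, beside 2341 higher and 1207 lower. Median centring moved the median of all genes to -0.07, 0.12 and 0.11 in these comparisons.

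**Figure D1:**
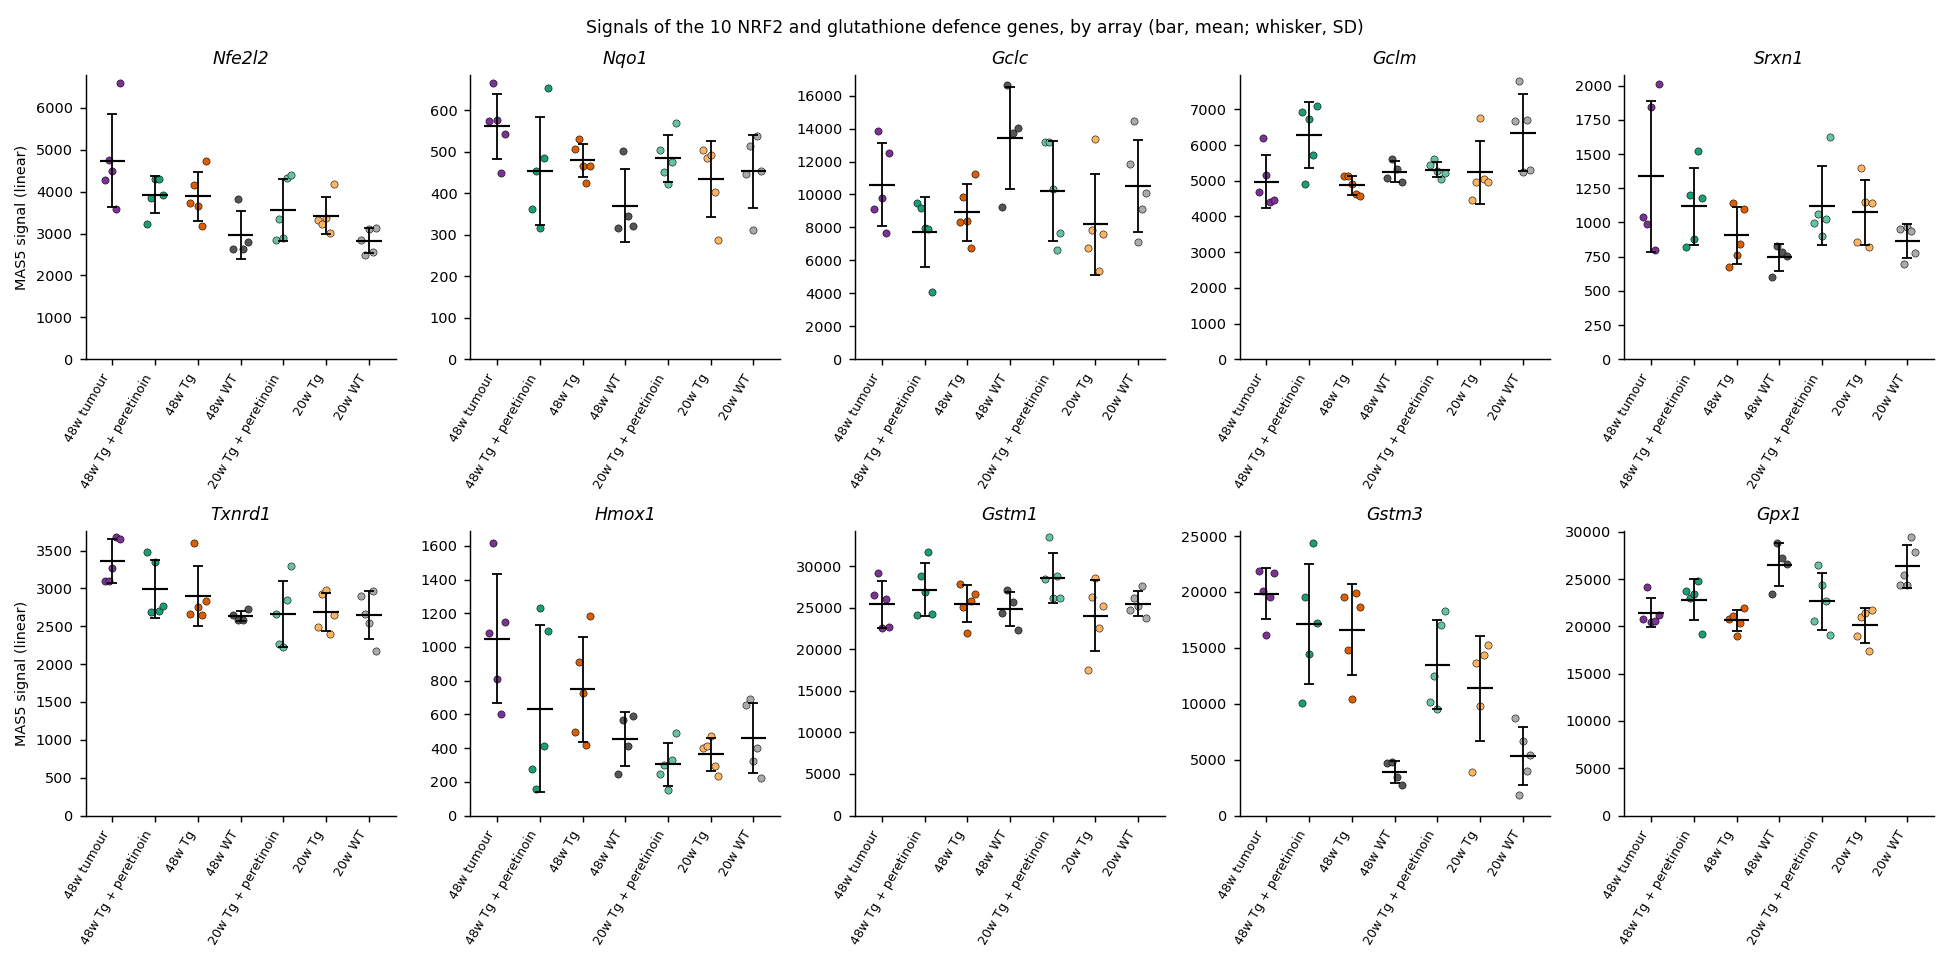
MAS5 signal (linear, vertical axis) of each of the 10 genes on every array, by group (horizontal axis), with 1 point per array, a bar at the group mean and whiskers of 1 SD. Gstm3 is high in all groups that carry the transgene, Gpx1 is lower in transgenic than in wild-type liver without peretinoin, and Gstm1 lies between 17492.1 and 33481.2 over all arrays.

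**Figure D2:**
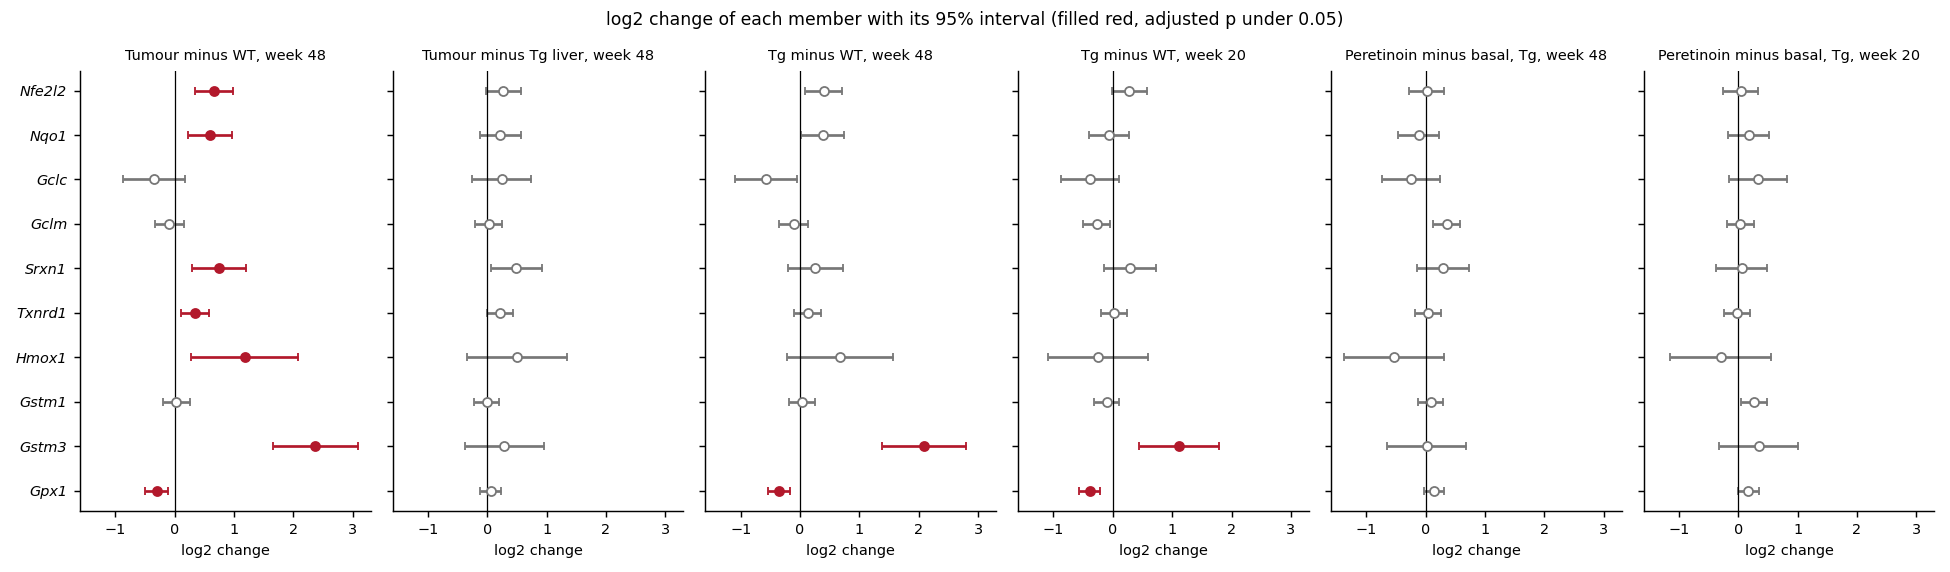
log2 change (horizontal axis) of each gene in 6 comparisons, with the 95% interval of the moderated estimate; filled red points are genes called. The called genes number 7 for tumour against wild type, 2 at each age for transgenic against wild type and 0 in the other panels.

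Nfe2l2 encodes the transcription factor itself. In tumours its signals were 4289.7, 4762.9, 4495.6, 3582.3 and 6587.5, in transgenic liver at 48 weeks 3718.5, 4156.0, 3670.2, 3181.5 and 4740.0, and in wild-type liver of that age 2626.9, 3815.4, 2624.8 and 2796.8. Of the 5 tumours, 4 lay above all wild-type livers and 1 fell inside their range, which 1 array (wild-type replicate 2) widened. Tumours were 1.58-fold higher than wild-type liver (log2 change 0.66 ± 0.15, SE; adjusted p = 0.00143). Transgenic against wild-type liver at 48 weeks gave 0.40 ± 0.15 and missed the threshold (adjusted p = 0.0641). Leaving out 1 array brought it past the threshold in 2 cases: without wild-type replicate 2 the change was 0.52 (adjusted p = 0.0209), and without transgenic replicate 4 it was 0.47 (adjusted p = 0.0396). Median centring also brought it past the threshold, at 0.48 (adjusted p = 0.0327), as did the mean of all its probe sets, at 0.52 (adjusted p = 0.0273). At 20 weeks Nfe2l2 gave 3429.7 ± 445 (SD, n = 5) in transgenic and 2828 ± 301 (SD, n = 5) in wild-type liver (adjusted p = 0.173). A second, dimmer probe set read 0.41 in tumour against wild-type liver (adjusted p = 0.383 over all probe sets).

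Nqo1, the quinone reductase most used as an NRF2 target, gave 575.6, 667.4, 576.8, 448.8 and 542.1 in tumours and 316.2, 501.7, 344.3 and 320.6 in wild-type liver at 48 weeks. In 4 of the 5 tumours it stood above all wild-type livers, and tumour 4 lay below wild-type replicate 2. Tumours were 1.51-fold higher (log2 change 0.59 ± 0.18; adjusted p = 0.0127). Transgenic liver of that age gave 508.2, 530.7, 464.9, 426.2 and 466.7, a change of 0.38 ± 0.18 against wild type (adjusted p = 0.136), or 0.53 (adjusted p = 0.0477) without wild-type replicate 2. At 20 weeks the change was -0.06 ± 0.17 (adjusted p = 0.824).

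Srxn1 encodes sulfiredoxin, which repairs over-oxidised peroxiredoxins. Tumours gave 1042.8, 985.1, 1840.4, 801.1 and 2010.9, transgenic liver at 48 weeks 672.9, 1145.4, 763.3, 845.8 and 1100.7 and wild-type liver 604.0, 830.9, 787.5 and 752.8. Tumours 3 and 5 stood far above the rest, and the lowest tumour fell inside the wild-type range. The change of tumour against wild type was 0.75 ± 0.23, or 1.68-fold (adjusted p = 0.0133). It was lost at the threshold without tumour 5, at 0.58 (adjusted p = 0.0589), without tumour 3, at 0.61 (adjusted p = 0.0507), and without wild-type replicate 1, at 0.65 (adjusted p = 0.0546). Of the other 3 Srxn1 probe sets, 2 were also called higher, at 1.25 and 0.97, and the dimmest read -0.60 (adjusted p = 0.367). Transgenic against wild-type liver gave 0.26 ± 0.23 at 48 weeks and 0.29 ± 0.21 at 20 weeks, neither called.

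Txnrd1, the cytosolic thioredoxin reductase, had the smallest rise of the genes called in tumours. Its signals were 3104.0, 3095.6, 3272.7, 3686.3 and 3657.8 in tumours and 2652.8, 2582.4, 2584.8 and 2729.5 in wild-type liver at 48 weeks, with no overlap. The change was 0.35 ± 0.11, or 1.27-fold (adjusted p = 0.0239). It missed the threshold without wild-type replicate 2 or 3, or without tumour 4 or 5, at 0.31 to 0.34 (adjusted p = 0.0544 to 0.0603). The other 2 Txnrd1 probe sets read 0.03 and 0.07 in the same comparison, so the rise rests on 1 of 3 probe sets. In transgenic liver at 48 weeks the signals were 2657.3, 3599.4, 2756.5, 2652.2 and 2836.0 (0.13 ± 0.11 against wild type, adjusted p = 0.47).

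Hmox1 encodes haem oxygenase 1, which breaks haem down to biliverdin, iron and carbon monoxide, and which macrophages that clear red cells also express. Its signals were 1079.8, 1615.0, 807.4, 599.6 and 1148.0 in tumours, 497.6, 913.1, 726.6, 419.0 and 1186.1 in transgenic liver and 245.2, 567.2, 413.8 and 589.9 in wild-type liver at 48 weeks. All 5 tumours stood above all 4 wild-type livers, the lowest by a narrow margin, and the spread among tumours was wide. Tumours were 2.26-fold higher (log2 change 1.18 ± 0.44; adjusted p = 0.0443). The call was lost without any 1 of tumours 1, 2 and 5 or wild-type replicates 1 and 3, at 0.92 to 1.16 (adjusted p = 0.0758 to 0.165). Recruited monocyte and macrophage markers moved with it: 7 of 7 measured were called higher in tumours, with summed signals of 4754 to 8416 in tumours and 774 to 1310.0 in wild-type liver. Their part in the result was not tested. In bulk tissue, fewer or more cells of a type and less or more RNA per cell cannot be told apart. At 20 weeks 6 of the same 7 markers were called higher in transgenic liver (summed signals of 2762 to 4421 in transgenic and 851 to 1593 in wild-type liver), and there Hmox1 gave 401.3, 413.3, 469.6, 291.3 and 234.5 in transgenic and 657.1, 689.5, 325.6, 398.2 and 222.4 in wild-type liver, a change of -0.25 ± 0.41 (adjusted p = 0.711). Of 6 Kupffer cell markers 4 were called lower there, with summed signals of 1613 to 4257 in transgenic and 9318 to 15887 in wild-type liver. At 48 weeks 1 of these 6 was called lower in transgenic liver and 2 in tumours against wild-type liver. Summed signals there were 6040 to 16887 in tumours and 5288 to 13068 in wild-type liver. The part of these cells was not tested either.

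Gclc and Gclm encode the catalytic and modifier subunits of glutamate-cysteine ligase, the first and rate-limiting step of glutathione synthesis. Neither was called in any of the 11 comparisons with the deposited scaling and the fit over all groups. Gclc signals were widely spread, at 7690.0 to 13870.2 in tumours, 6752.2 to 11251.1 in transgenic and 9265.5 to 16654.5 in wild-type liver at 48 weeks. Gclc against wild type gave -0.58 ± 0.26 in transgenic liver (adjusted p = 0.106), while tumours gave -0.34 ± 0.26 (adjusted p = 0.349), the opposite sign to the 6 members called higher. With only the arrays of both groups in the fit, the same Gclc change of -0.58 passed the threshold (adjusted p = 0.0361). Gclm gave 4469.3, 4960.4, 6757.3, 5038.5 and 4953.2 in transgenic and 6664.3, 7797.7, 5246.6, 6701.2 and 5314.2 in wild-type liver at 20 weeks, where 4 of 5 transgenic livers lay below all wild-type livers. The change of -0.27 ± 0.11 missed the threshold (adjusted p = 0.0777). Without transgenic replicate 3, the high one, it was -0.37 (adjusted p = 0.0168), and without wild-type replicate 3 or 5 it was -0.34 (adjusted p = 0.0386) or -0.33 (adjusted p = 0.0438). Gclm was also called lower at 20 weeks with median centring, at -0.40 (adjusted p = 0.0182), and with the mean of all its probe sets, at -0.31 (adjusted p = 0.0389). Tumours differed from wild-type liver in Gclm by -0.09 ± 0.12 (adjusted p = 0.641).

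Gstm3 and Gstm1 encode mu-class glutathione S-transferases, which join glutathione to electrophiles, and they lie in the same cluster of 7 Gstm genes on chromosome 3. Gstm3 was the member that rose most. At 48 weeks its signals were 21849.3, 20038.2, 16172.3, 19519.0 and 21669.2 in tumours, 19509.9, 14787.6, 10379.6, 19885.8 and 18627.3 in transgenic liver and 4659.1, 4766.4, 3481.0 and 2693.4 in wild-type liver. No tumour and no transgenic liver overlapped the wild-type livers. Transgenic liver was 4.25-fold higher (log2 change 2.09 ± 0.35; adjusted p = 5.11e-05) and tumours were 5.18-fold higher (2.37 ± 0.35; adjusted p = 5.68e-06). Tumour against transgenic liver gave 0.29 ± 0.33 (95% interval -0.38 to 0.96; adjusted p = 0.917).

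At 20 weeks Gstm3 gave 3876.9, 13628.9, 9796.6, 14384.7 and 15220.7 in transgenic and 8719.2, 1855.5, 6684.2, 4004.3 and 5378.5 in wild-type liver. The groups overlapped: transgenic replicate 1 lay among the wild-type livers and the other 4 above them. The change was 1.12 ± 0.33, or 2.17-fold (adjusted p = 0.0122). It was 0.78 (adjusted p = 0.0559) without wild-type replicate 2, the lowest array, and missed the threshold with only the arrays of both groups in the fit (adjusted p = 0.0753). The transgene effect was larger at 48 than at 20 weeks by 0.97 ± 0.48, which did not pass the test (adjusted p = 0.381, 95% interval -0.01 to 1.94).

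Peretinoin-fed transgenic livers had Gstm3 signals of 10074.5, 19575.5, 14416.8, 24339.2 and 17193.6 at 48 weeks and 10146.1, 12495.9, 9527.3, 17009.0 and 18289.0 at 20 weeks, and each of these 10 arrays stood above every wild-type array of its age. Ordered by mean, Gstm3 ran from tumours through peretinoin-fed and transgenic liver at 48 weeks, peretinoin-fed and transgenic liver at 20 weeks, to wild-type liver at 20 and then at 48 weeks, and the arrays of neighbouring groups overlapped at every step. The probe set behind these values ends in _s_at, the maker's mark for one that can match more than 1 transcript. The other Gstm3 probe set, without that mark, averaged 7831 ± 3032 in transgenic (SD, n = 5) and 813 ± 248 in wild-type liver at 48 weeks (SD, n = 4), a change of 3.18 (adjusted p = 3.00e-05). At 20 weeks it gave 1.34 (adjusted p = 0.0568 over all probe sets).

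Gstm1 was called in none of the 11 comparisons. Its signals ran over 22538.1 to 29224.4 in tumours, 22028.4 to 27827.6 in transgenic and 22328.9 to 27108.2 in wild-type liver at 48 weeks, and the change in transgenic liver was 0.03 ± 0.11 (adjusted p = 0.865, 95% interval -0.19 to 0.26). With quantile normalisation that change was 0.30 (adjusted p = 0.0153) and the change of tumour against wild type was 0.28 (adjusted p = 0.0217), both called. The other Gstm1 probe sets read 0.37, 0.41 and -0.12 in transgenic liver at 48 weeks (adjusted p = 0.111, 0.161 and 0.597 over all probe sets). In tumours against wild type the same probe sets read 0.39, 0.25 and -0.09 (adjusted p = 0.0766, 0.405 and 0.683). Of the neighbouring Gstm genes, Gstm2 was called higher in tumours (1.01 ± 0.34; adjusted p = 0.026) and gave 0.80 ± 0.34 in transgenic liver at 48 weeks (adjusted p = 0.0929). The tumour call was lost without the 6 arrays with muscle or acinar transcripts, at 0.91 (adjusted p = 0.0569). Gstm6 was called lower in transgenic liver at 20 weeks (-0.84 ± 0.25; adjusted p = 0.0122). Gstm4, Gstm5 and Gstm7 were not called in these 3 comparisons, but Gstm4 was called lower at 20 weeks without those 6 arrays, at -0.52 (adjusted p = 0.0418), and with median centring, at -0.61 (adjusted p = 0.0236).

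**Figure D3:**
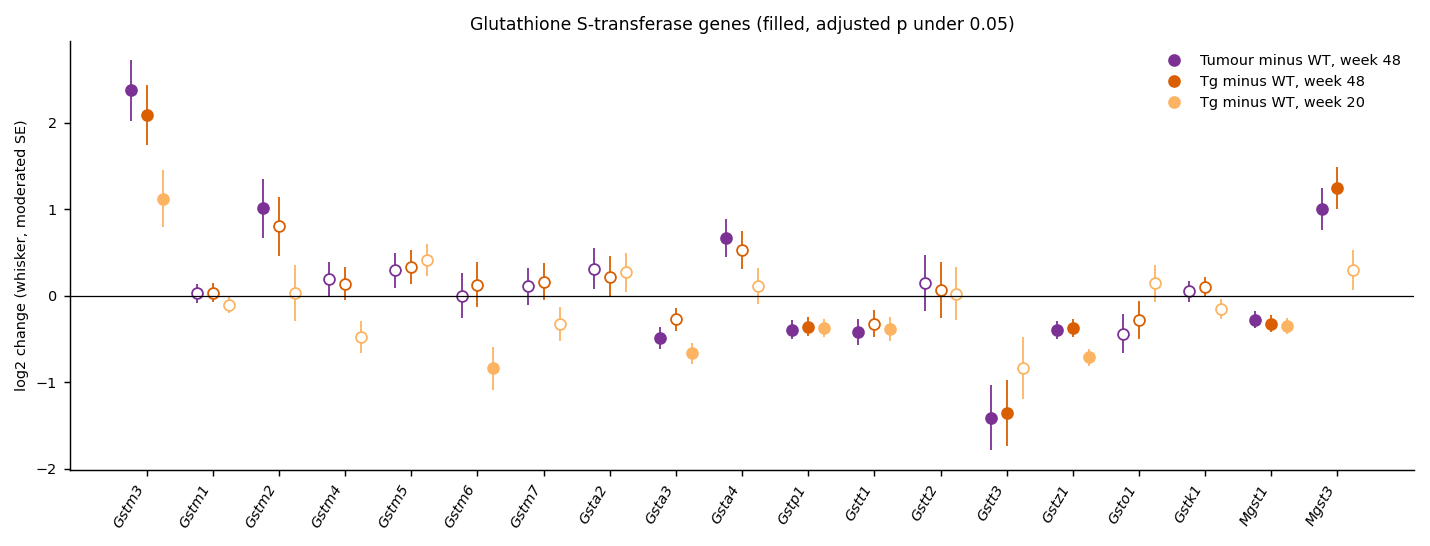
log2 change with its moderated SE (vertical axis) of 19 glutathione S-transferase genes (horizontal axis), for tumour minus wild type at 48 weeks and transgenic minus wild type at 48 and 20 weeks; filled points are called. Gstm3 stands highest in each comparison and Mgst3 is called higher at 48 weeks, while Gstp1, Gstz1 and Mgst1 are called lower in all 3 comparisons with the deposited scaling, but at 48 weeks, in transgenic liver and in tumours, all 3 calls are lost with median centring. With quantile normalisation Mgst1 is called in none of the 3 comparisons, Gstp1 only in tumours, and Gstz1 not in transgenic liver at 48 weeks.

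Gpx1 encodes the main cytosolic glutathione peroxidase, which reduces hydrogen peroxide at the cost of glutathione. With the deposited scaling and all groups in the fit it was the only member called lower. At 20 weeks its signals were 19039.9, 21023.2, 21419.3, 17399.5 and 21702.5 in transgenic and 24431.4, 25475.7, 24431.4, 29511.9 and 27928.4 in wild-type liver, with no overlap, and the change was -0.39 ± 0.09, or 1.31-fold lower (adjusted p = 0.00123). At 48 weeks its signals were 20785.1, 21150.8, 18948.1, 20344.9 and 21967.8 in transgenic and 23386.7, 28793.5, 27221.4 and 26634.9 in wild-type liver, again with no overlap (-0.36 ± 0.09; adjusted p = 0.0048). Tumours gave 20774.7, 24155.1, 20468.0, 20608.8 and 21239.4, of which 1 overlapped the wild-type livers (-0.30 ± 0.09; adjusted p = 0.013).

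The size of the Gpx1 fall depended on the scaling. Quantile normalisation gave -0.11 (adjusted p = 0.049) at 20 weeks, -0.12 (adjusted p = 0.0442) at 48 weeks and -0.06 (adjusted p = 0.339) in tumours. Median centring gave -0.52 (adjusted p = 0.00144), -0.28 (adjusted p = 0.113) and -0.23 (adjusted p = 0.181), so the call of 48 weeks and that of tumours were lost. Without wild-type replicate 2 the tumour change was -0.26 (adjusted p = 0.0555). Some hepatocyte markers fell with it: 3 of 7 measured were called lower at 20 weeks, with summed signals of 136772 to 180539 in transgenic and 176296 to 205835 in wild-type liver, and 4 of 7 at 48 weeks, with 142585 to 159664 in transgenic and 168148 to 200824 in wild-type liver. Those hepatocyte counts also depended on the scaling and the arrays: with quantile normalisation 0 were called lower at 20 weeks and 1 at 48 weeks, with median centring 5 and 1, and without the 6 arrays with muscle or acinar transcripts 2 and 1. The 3'/5' signal ratio of Actb, a measure of RNA integrity, also separated the groups at 20 weeks, at 1.62 to 1.74 in transgenic and 1.81 to 2.16 in wild-type liver. That of Gapdh overlapped, at 0.74 to 0.78 and 0.75 to 0.85. At 48 weeks the Actb ratio was 1.25 to 1.47 in tumours, 1.30 to 1.57 in transgenic and 1.39 to 1.71 in wild-type liver, with overlap. The part of hepatocytes or of RNA integrity in the fall was not tested.

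In tumour against non-tumour transgenic liver at 48 weeks, 0 of 10 members were called in limma, beside 0% of all genes. The fit was unpaired, and whether tumours and livers came from the same mice was not given. Deviations of same-numbered tumours and livers were correlated over all genes, at r = 0.077 to 0.290, and a paired fit was not run. Without the 6 arrays with muscle or acinar transcripts, 4 genes were called in all, and again 0 members. At an unadjusted p under 0.05 stood 1 member, Srxn1 (0.49 ± 0.21), and 1075 of all genes. The members' median change was 0.23, beside 0.01 for all genes, and 9 of 10 estimates were above 0. The 95% intervals ran over -0.03 to 0.56 for Nfe2l2, -0.13 to 0.56 for Nqo1, and -0.34 to 1.35 for Hmox1. None of the 7 members called in tumour against wild type was called against transgenic liver.

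Peretinoin was compared with no peretinoin within transgenic mice, to ask whether the diet moved these genes. The Actb 3'/5' ratio differed too, at 1.70 to 3.31 with peretinoin and 1.62 to 1.74 without it at 20 weeks. At 48 weeks it was 1.42 to 1.94 with peretinoin and 1.30 to 1.57 without it. Its part in any peretinoin difference given here or for the lists below was not tested. None of the 10 members was called by limma at either age, against 2.89% of all genes at 20 weeks and 0.725% at 48 weeks. At an unadjusted p under 0.05 there was 1 member at each age, Gstm1 at 20 weeks and Gclm at 48 weeks. Gstm1 gave 28452.6, 33481.2, 26140.3, 28884.7 and 26167.1 in peretinoin-fed and 17492.1, 26314.8, 28646.5, 22582.1 and 25235.5 in transgenic liver without peretinoin at 20 weeks, overlapping groups with a change of 0.26 ± 0.10 (adjusted p = 0.145). Gclm gave 6933.9, 4911.5, 6739.2, 5731.2 and 7080.5 with peretinoin and 5129.1, 5126.9, 4899.8, 4619.4 and 4561.6 without it at 48 weeks. There 4 of 5 peretinoin-fed livers stood above all livers without peretinoin, and replicate 2 fell inside their range (0.35 ± 0.11, 1.28-fold; adjusted p = 0.138).

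For the 2 genes called in transgenic liver, the peretinoin difference in Gstm3 was 0.35 ± 0.33 at 20 weeks and 0.02 ± 0.33 at 48 weeks, with 95% intervals of -0.32 to 1.01 and -0.65 to 0.69. The peretinoin difference in Gpx1 was 0.17 ± 0.09 at 20 weeks, with signals of 20564.9, 26516.2, 24417.2, 22683.4 and 19045.6 in peretinoin-fed liver, and 0.14 ± 0.09 at 48 weeks, with 23735.4, 23022.6, 23424.2, 24826.0 and 19191.2. Neither Gpx1 difference was called (adjusted p = 0.292 and adjusted p = 0.481), and with quantile normalisation the estimate at 20 weeks was -0.02. Hmox1 at 48 weeks spread from 155.7 to 1232.1 with peretinoin, where 2 arrays stood far above the other 3, and those 3 lay below every transgenic liver without peretinoin. The change was -0.53 ± 0.41 (adjusted p = 0.61). The difference of the peretinoin effect between ages was called for 0 of 10 members, against 0.679% of all genes. At an unadjusted p under 0.05 stood 0 members and 1780 of all genes.

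Age was compared as 48 against 20 weeks within each genotype and diet. The Actb 3'/5' ratio separated the ages in wild-type liver, at 1.81 to 2.16 at 20 weeks and 1.39 to 1.71 at 48 weeks. It also separated them in transgenic liver, at 1.62 to 1.74 and 1.30 to 1.57. In peretinoin-fed liver it was 1.70 to 3.31 and 1.42 to 1.94, with overlap. The Gapdh 3'/5' ratio overlapped between ages, at 0.75 to 0.85 and 0.69 to 0.79 in wild-type liver and 0.74 to 0.78 and 0.72 to 0.75 in transgenic liver. The part of either ratio in the age differences was not tested. No member was called by limma in wild-type liver (6.88% of all genes called), in transgenic liver (15.7%) or in peretinoin-fed liver (13.5%), and at an unadjusted p under 0.05 the members numbered 1, 1 and 0. In wild-type liver that was Gclm (-0.26 ± 0.12; adjusted p = 0.213) and in transgenic liver Hmox1 (0.96 ± 0.41; adjusted p = 0.114). Hmox1 passed the threshold with only the transgenic arrays in the fit (adjusted p = 0.028). With median centring Gclm and Txnrd1 were called higher with age in peretinoin-fed liver, at 0.44 (adjusted p = 0.015) and 0.39 (adjusted p = 0.019), where the median of all genes was -0.05 as deposited and 0.16 after centring. The transgene effect differed between ages for 0 of 10 members, against 0.275% of all genes. At an unadjusted p under 0.05 stood 0 members and 1723 of all genes.

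Other genes of the pathway were taken as lists, and their counts are set beside the shares of all genes called. Those shares were 15.8% higher and 7.87% lower for transgenic liver at 20 weeks, and 14.2% and 6.58% at 48 weeks. For tumours against wild-type liver they were 17.9% and 9.21%, and for peretinoin 2.89% and 0.725% in either direction at 20 and 48 weeks. Counts near these shares are no result about a list. Of 10 measured regulators of NRF2, 0 were called in transgenic liver at 48 weeks and 1 at 20 weeks, Sqstm1, whose protein p62 draws KEAP1 to autophagy (0.23 ± 0.09; adjusted p = 0.0497). That call was lost with median centring, at 0.10 (adjusted p = 0.531), and without the 6 arrays with muscle or acinar transcripts, at 0.23 (adjusted p = 0.0826). In tumours against wild-type liver 2 were called higher, the small MAF genes Mafk (0.75 ± 0.24; adjusted p = 0.02) and Maff (1.29 ± 0.46; adjusted p = 0.0339). Keap1, the repressor, gave -0.01 ± 0.12 there and was not called (adjusted p = 0.974). The 2 of 10 called higher in tumours were near the 17.9% of all genes called higher there. The list's median change in tumours was -0.02, beside 0.03 for all genes. The tumour calls also depended on the scaling. With quantile normalisation Sqstm1 was called higher too, at 0.29 (adjusted p = 0.0226), and Btrc lower, at -0.59 (adjusted p = 0.0217). With median centring Gsk3b was called higher too, at 0.72 (adjusted p = 0.0487).

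Of 10 other genes of glutathione synthesis, recycling and breakdown, 1 was called lower at 20 weeks, Chac2, which degrades glutathione (-0.78 ± 0.13; adjusted p = 4.50e-05), and 0 at 48 weeks in transgenic liver. In tumours 2 were called higher, Ggct (1.44 ± 0.32), a gamma-glutamylcyclotransferase, and Gss (0.36 ± 0.12), glutathione synthetase, and Chac2 was lower (-0.55 ± 0.14). With peretinoin 1 was called higher at each age, Cbs at 20 weeks (0.93 ± 0.24; adjusted p = 0.028), which feeds homocysteine toward cysteine, and Gss at 48 weeks (0.45 ± 0.11; adjusted p = 0.048). The median change of the list was 0.03, -0.09 and -0.25 for transgenic liver at 20 weeks, at 48 weeks and for tumours, beside 0.06, 0.04 and 0.03 for all genes. With median centring neither peretinoin call passed, Cbs at 0.94 (adjusted p = 0.0551) and Gss at 0.55 (adjusted p = 0.0518). Nor did Gss without the 6 arrays with muscle or acinar transcripts, at 0.46 (adjusted p = 0.0945).

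Among 17 other glutathione S-transferases, more were called lower than higher with the deposited scaling. In transgenic liver at 20 weeks 6 were lower and 0 higher, led by Gstz1 (-0.71 ± 0.10; adjusted p = 1.93e-06), which also degrades tyrosine products, and Gsta3 (-0.67 ± 0.13; adjusted p = 0.000168), an alpha-class enzyme. At 48 weeks 4 were lower, with Gstt3 at -1.36 ± 0.38, and 1 higher, the microsomal Mgst3 (1.25 ± 0.24; adjusted p = 0.000321). In tumours 6 were lower and 3 higher, namely Mgst3, Gstm2 and Gsta4 (0.66 ± 0.22), the enzyme that clears lipid peroxidation aldehydes. With peretinoin 1 was higher at 20 weeks, Gstm7 (0.86 ± 0.20; adjusted p = 0.0179), and 0 at 48 weeks. Gstp1 was also called higher with peretinoin at 20 weeks without the 6 arrays with muscle or acinar transcripts, at 0.43 (adjusted p = 0.042). Gstm6 was so with quantile normalisation, at 0.86 (adjusted p = 0.0462). The list's median change was -0.33 at 20 weeks, 0.10 at 48 weeks and 0.05 in tumours, beside 0.06, 0.04 and 0.03 for all genes. With quantile normalisation the calls were 0 higher and 3 lower at 20 weeks, 1 higher and 1 lower at 48 weeks and 3 higher and 3 lower in tumours, and with median centring 0 higher and 7 lower, 1 higher and 1 lower and 3 higher and 2 lower. Pericentral hepatocyte markers were lower too, 3 of 8 at 20 weeks, 2 at 48 weeks and 7 in tumours, with summed signals of 44587 to 60121 in tumours and 82135 to 100719 in wild-type liver at 48 weeks, and their part was not tested.

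Of 16 other genes that remove peroxide and superoxide, 4 were higher and 4 lower in transgenic liver at 20 weeks. The higher ones were Gpx3 (3.21 ± 0.33; adjusted p = 6.86e-09), the secreted peroxidase, Gpx8 (1.47 ± 0.22) and Gpx7 (1.13 ± 0.21), of the endoplasmic reticulum, and Sod3 (1.14 ± 0.27), the extracellular dismutase. The lower ones were Cat (-0.48 ± 0.08; adjusted p = 6.24e-05), the peroxisomal catalase, Msrb1, Txn1 and Sod1. At 48 weeks Gpx3, Gpx8 and Gpx7 were higher and Msrb1 and Cat lower, and in tumours 7 were higher and 3 lower. With quantile normalisation the calls were 5 higher and 1 lower at 20 weeks, 5 higher and 1 lower at 48 weeks and 8 higher and 1 lower in tumours, and Gpx4, the peroxidase of membrane lipids, was called higher at 20 weeks, at 0.39 (adjusted p = 0.00499), and at 48 weeks, at 0.38 (adjusted p = 0.00907). Cat was then not called at 48 weeks, at -0.13 (adjusted p = 0.202), nor with median centring, at -0.27 (adjusted p = 0.0882). The list's median was -0.02, 0.22 and 0.26 in these comparisons. With peretinoin 0 of the 16 were called at either age as deposited. Without the 6 arrays with muscle or acinar transcripts Gpx3 was called lower with peretinoin at 20 weeks, at -1.24 (adjusted p = 0.0241). Gpx1 was called lower where Gpx3, Gpx7 and Gpx8 were called higher, in transgenic liver at both ages. Stellate cell and myofibroblast markers moved with those 3: 5 of 8 were called higher at 20 weeks (summed signals of 19223 to 23779.5 in transgenic and 2936 to 6972 in wild-type liver) and 6 of 8 at 48 weeks (14233 to 19266 in transgenic and 5162 to 8432 in wild-type liver), and their part was not tested.

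**Figure D4:**
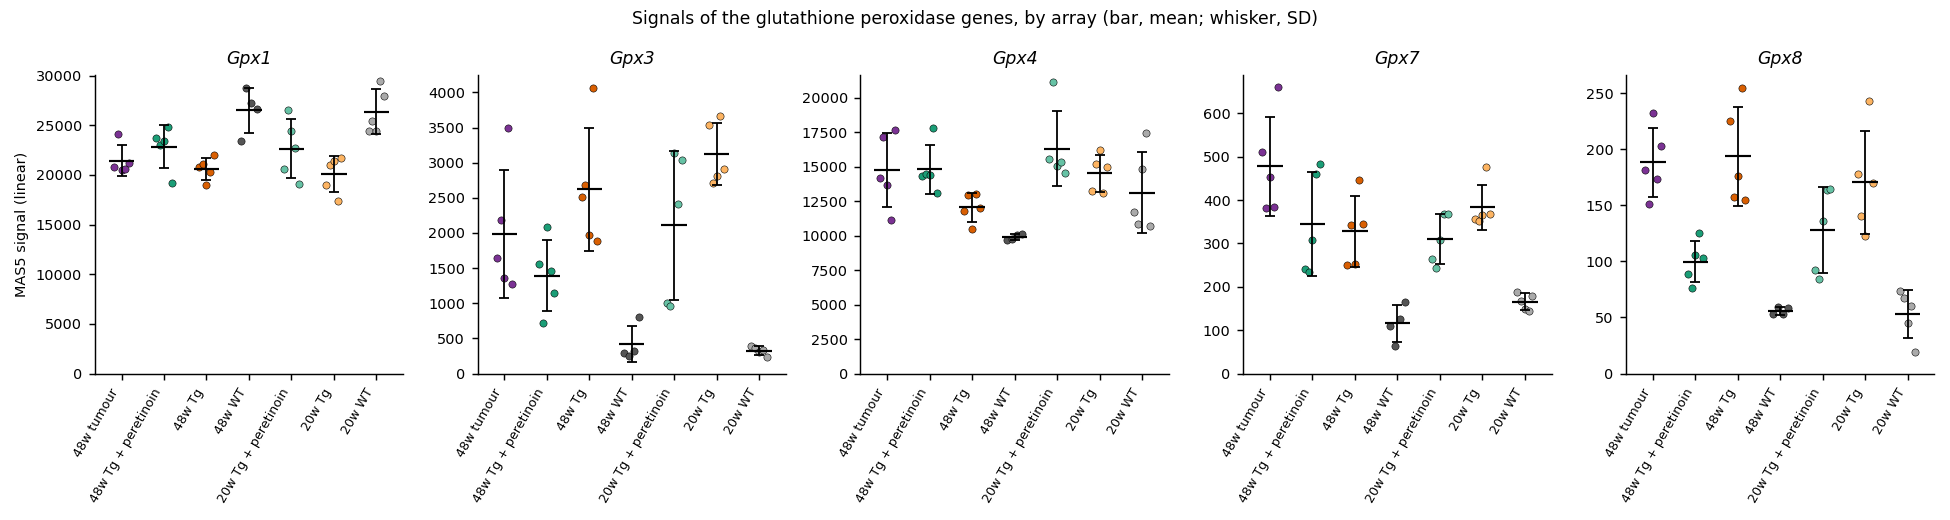
MAS5 signal (linear, vertical axis, a scale for each gene) of 5 glutathione peroxidase genes on every array, by group, with the mean and SD. Gpx1 is lower and Gpx3, Gpx7 and Gpx8 are higher at both ages where transgenic livers without peretinoin are set beside wild type.

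Of 6 genes that supply NADPH, 3 were lower in transgenic liver at 20 weeks, Me1 (-1.26 ± 0.25; adjusted p = 0.000396), the malic enzyme, Idh1 (-0.55 ± 0.08), the cytosolic isocitrate dehydrogenase, and Taldo1 (-0.55 ± 0.14), of the pentose phosphate path. At 48 weeks 1 was lower, Idh1 (-0.25 ± 0.09), and in tumours Idh1 was lower and Pgd higher (1.14 ± 0.25; adjusted p = 0.000836). Idh1 was not called at 48 weeks with quantile normalisation, at -0.06 (adjusted p = 0.601), or with median centring, at -0.17 (adjusted p = 0.375), nor in tumours, at -0.08 (adjusted p = 0.482) and -0.20 (adjusted p = 0.264). With peretinoin at 20 weeks Idh1 was higher (0.34 ± 0.08; adjusted p = 0.0219) but was not called under quantile normalisation, at 0.20 (adjusted p = 0.111). Me1 was called higher with peretinoin at 20 weeks without the 6 arrays with muscle or acinar transcripts, at 1.05 (adjusted p = 0.0233). The list's median was -0.30, -0.14 and -0.02 for transgenic liver at 20 and 48 weeks and for tumours. Of 12 other NRF2-responsive enzymes and exporters, 3 were higher at 20 weeks, 2 at 48 weeks and 3 in tumours, and 2, 0 and 0 were lower. At 20 weeks median centring gave 3 higher and 4 lower, with Ugdh at -0.54 (adjusted p = 0.0188) and Aldh3a2 at -0.70 (adjusted p = 0.0322), and quantile normalisation gave 2 higher and 1 lower, without Abcc4, at 0.91 (adjusted p = 0.0584), and Aox1, at -0.57 (adjusted p = 0.0527). Cbr3, a carbonyl reductase, was higher in each (1.43 ± 0.38, 1.45 ± 0.40 and 2.14 ± 0.40). Abcc1, an exporter of glutathione conjugates, was higher in transgenic liver at 20 and 48 weeks (1.25 ± 0.21 and 0.88 ± 0.22). With peretinoin 0 of those 12 were called at either age as deposited. Without the 6 arrays with muscle or acinar transcripts Nqo2 was called higher with peretinoin at 20 weeks, at 0.57 (adjusted p = 0.0361). The list's median was -0.07, -0.14 and -0.01. Of 6 genes of haem and iron handling, 3 were lower at 20 weeks, 1 at 48 weeks and 2 in tumours, Hpx, the haem scavenger hemopexin, in each (-0.33, -0.32 and -0.28), and with quantile normalisation 0 of the 6 were lower in any of these, Hpx reading -0.02 (adjusted p = 0.749), -0.09 (adjusted p = 0.169) and -0.05 (adjusted p = 0.437). Without the 6 arrays with muscle or acinar transcripts 1, 0 and 0 were lower. The list's median was -0.21, -0.17 and -0.19. Blvra, a biliverdin reductase and so the next step after Hmox1, was higher in tumours (0.40 ± 0.15; adjusted p = 0.0466) but not under quantile normalisation, at 0.33 (adjusted p = 0.112). With peretinoin 1 of the 6 was higher at each age, Cp, at 0.37 (adjusted p = 0.046) at 20 weeks and 0.46 (adjusted p = 0.0281) at 48 weeks. With median centring neither Cp call passed, at 0.38 (adjusted p = 0.144) and 0.56 (adjusted p = 0.0545).

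Whether members varied together between samples of a group was asked from the deviations of 34 arrays from their group means, over 45 pairs, with 100000 permutations within groups. Nfe2l2 and Srxn1 deviated together (Pearson r = 0.61, Benjamini-Hochberg adjusted permutation p = 0.0243; Spearman rho = 0.56, adjusted permutation p = 0.0313). Without the 2 arrays farthest from the median of Nfe2l2, r was 0.54, and with quantile normalisation it was 0.60 (adjusted permutation p = 0.0146). Nfe2l2 and Nqo1, by contrast, gave r = 0.12 (adjusted permutation p = 0.872). Gpx1 was correlated with Gclc (r = 0.59, rho = 0.52, adjusted permutation p = 0.0319 and 0.0993) and with Gstm1 (r = 0.56, rho = 0.63, adjusted permutation p = 0.0319 and 0.0108). Without the 2 farthest arrays these r were 0.51 and 0.59, but with quantile normalisation they were 0.34 and -0.07, neither past the threshold. In their place quantile normalisation brought Gstm1 with Gstm3 (r = 0.68, adjusted permutation p = 0.0146) and Gclm with Hmox1 (r = 0.58, adjusted permutation p = 0.0366) past it, where the deposited scaling gave 0.45 and 0.52 (adjusted permutation p = 0.162 and 0.0755). Each scaling thus had 3 of 45 pairs past the threshold, of which 1 was shared. How often pairs of other genes would pass was not tested, so these counts are not shown to be particular to the members. The labels give no batch within which to repeat these values.

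**Figure D5:**
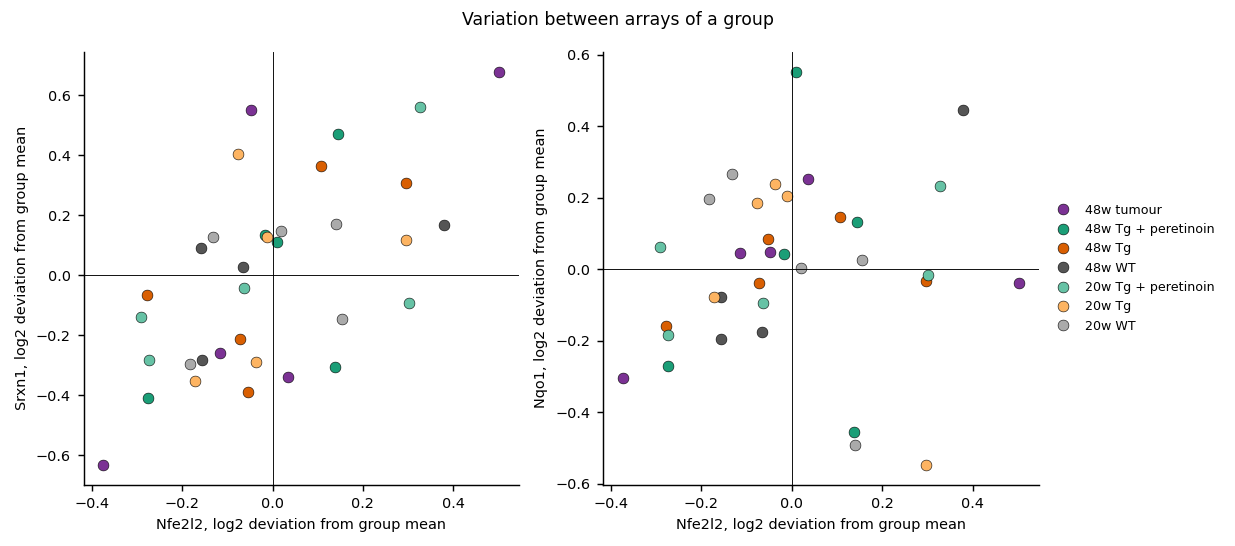
log2 deviation of each array from its group mean for Srxn1 (left, vertical axis) and Nqo1 (right, vertical axis) against that of Nfe2l2 (horizontal axis), 1 point per array, coloured by group. Srxn1 deviates with Nfe2l2 (r = 0.61), and the value for Nqo1 is lower (r = 0.12).

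The 2 members whose group means spanned more than 1 log2 unit were set against tested genes by the root-mean-square difference of their centred means over 7 groups. Members and genes with Gm, Rik or LOC symbols were left out of the genes compared. Gstm3 spanned 2.37 log2 units, and the closest genes were Ccnd1 (0.191), Esm1 (0.197) and Cdc42ep5 (0.202). Hmox1 spanned 1.76 log2 units, and the closest were Wfdc17 (0.155), Cd300lb (0.192) and Pilra (0.193).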

How the data were processed

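RNA of 34 mouse liver and tumour samples was measured, 1 array each. The authors deposited linear signal intensities from MAS5, of no stated version, per the submitters' processing notes. Genes were named from the platform's probe table: 34945 of 45101 probe sets had exactly 1 symbol, 932 several and 9160 none. After log2(signal + 16), the 60% of non-control probe sets with the highest mean were kept, and the brightest 1-symbol probe set stood for a gene, which left 13099 genes. All 7 groups entered 1 limma model (version 3.58.1, R 4.3.3; lmFit, eBayes with an intensity trend), two-sided, with Benjamini-Hochberg adjustment over all genes within each of 11 comparisons, and a call at adjusted p under 0.05. Errors are moderated SE for log2 changes and SD for signals. The number of arrays limits the precision. The members and lists were chosen with earlier results of these data known, so counts over lists are descriptions. All 10 members are described, and up to 4 members per list with the smallest p are named, with Keap1, the other Gstm genes and further called list members added after their values were seen. An array carried another tissue's transcripts where the mean of muscle or acinar markers lay 3 log2 units above the median array. No array was left out. The highest correlation between 2 arrays was 0.977, with 0.293% identical signals, so no array was counted as a duplicate. The scripts were tested on simulated data. Alternatives were the offset, the filter, the scaling, the probe set, the arrays in the fit, a replicate block and leaving out each array.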

Additional observations from a re-analysis of the deposited data

Results flagged for a closer look

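In 6 of 70 sets of 1 gene in 1 group, a single array stood apart from the rest of its group by Dixon's test, which chance would do in about 1 of 20 sets. Gclc read 4109.7 in peretinoin-fed replicate 5 at 48 weeks, where the other 4 arrays read 7878.2 to 9470.8. Gpx1 read 24155.1 in tumour 2, where the others read 20468.0 to 21239.4. Txnrd1 read 3599.4 in transgenic replicate 2 at 48 weeks, where the others read 2652.2 to 2836.0. Nfe2l2 read 3815.4 in wild-type replicate 2 at 48 weeks, where the other 3 read 2624.8 to 2796.8. Srxn1 read 1624.4 in peretinoin-fed replicate 5 at 20 weeks, where the others read 898.7 to 1062.7, and that array also carried muscle transcripts. Gclm read 6757.3 in transgenic replicate 3 at 20 weeks, where the others read 4469.3 to 5038.5.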

How the results depend on the processing

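With an offset of 1 or 64, or with the upper 40% of probe sets, all 110 member changes kept their direction where called and their side of the threshold. Other settings moved the counts of members called, which were 2 and 2 for the transgene at 20 and 48 weeks, 7 for tumour against wild type and 0 elsewhere. With only the compared groups in the fit, they were 1 for the transgene at 20 weeks, 3 at 48 weeks and 1 for age in transgenic liver. Median centring gave 3 at 20 weeks, 6 in tumours and 2 for age in peretinoin-fed liver, and quantile normalisation gave 3 at 48 weeks and 6 in tumours. The mean of all probe sets gave 3 at 20 weeks, 3 at 48 weeks, 5 in tumours and 1 for age in peretinoin-fed liver, and no filter on low signals gave 6 in tumours. Leaving out 1 array at a time gave 1 to 3 members for the transgene at 20 weeks (1 without wild-type replicate 2), 2 to 4 at 48 weeks (4 without wild-type replicate 2), 4 to 7 for tumour against wild type (4 without tumour 5) and 0 in the other comparisons. Hmox1 in tumours was not called without the filter (adjusted p = 0.0574), with quantile normalisation (adjusted p = 0.0591) or with the mean of all probe sets (adjusted p = 0.0505), and Txnrd1 was not with the mean of its probe sets, at 0.15 (adjusted p = 0.604). The Srxn1 change in tumours turned to -0.60 when 1 of its probe sets stood alone, and the cause was not tested.

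Replicate numbers are shared between groups, but in no comparison did all same-numbered samples correlate above 0.1 in their deviations. The tumour and transgenic pairs came nearest. All 5 of those were positive, at 0.077 to 0.290, with 4 of 5 above 0.1, and 4 of 5 correlated best with their own number. The replicate block gave each replicate number 1 effect shared by all 7 groups. With it, 6 members in place of 7 were called for tumour against wild type, Hmox1 being at 1.12 (adjusted p = 0.0701). No other call changed. A fit of tumours paired only with transgenic livers was not run, so the block does not test that pairing. The alternatives without arrays that carried muscle or acinar transcripts and with each probe set alone were chosen after seeing the data. With 4 or 5 arrays a group, small changes in genes of wide spread, such as Gclc and Hmox1, are measured with wide intervals.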

Other observations

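Probe sets that did not stand for their gene gave a few values apart from the chosen ones. A dimmer Txnrd1 probe set read 210.0, 199.1, 203.9, 311.8 and 328.1 in peretinoin-fed liver at 20 weeks, against 358.0, 481.5, 650.7, 462.1 and 432.5 in transgenic liver without peretinoin, with no overlap. Its change was -0.89 (limma, adjusted p = 0.0474 over all probe sets), whereas the brightest Txnrd1 probe set gave -0.03. The Actb 3'/5' ratio moved with it, at 1.7 to 3.31 with peretinoin and 1.62 to 1.74 without, and its part was not tested. A second Gclm probe set was higher at 48 than at 20 weeks in peretinoin-fed liver (0.54, adjusted p = 0.00284), where the chosen one gave 0.23 (adjusted p = 0.186). A Gstm1 probe set of the kind marked _x_at, which can match related transcripts, was higher at 48 than at 20 weeks in transgenic liver (0.64, adjusted p = 0.0131), where the chosen one gave 0.10. The Actb 3'/5' ratios of these groups, given with the age comparison, also shifted with age, and their part was not tested.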
